A study of Mus musculus with 2 samples.

Results

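The 9 genes described here were chosen by symbol out of the 28692 genes listed in both count tables: the class I heavy chain genes H2-K1 and H2-D1, the light chain gene B2m, the peptide transporter genes Tap1 and Tap2, the immunoproteasome subunit genes Psmb8, Psmb9 and Psmb10, and the interferon regulatory factor gene Irf7. Their transcripts were counted as UMIs (unique molecular identifiers, each standing for 1 captured transcript) in 2 droplet libraries of hepatocytes, the metabolic cells of the liver, taken from C57BL/6 mice and grown in 3 dimensions in a basement membrane gel. For the induction library the medium held dexamethasone, a synthetic glucocorticoid, at 3 uM. For the expansion library it held CHIR99021, which inhibits the kinase GSK3, at 3 uM, and TNFa, an inflammatory cytokine, at 100 ng/mL. Both groups also had HGF at 50 ng/mL and EGF at 25 ng/mL as growth factors, Y27632 against the kinase ROCK (10 uM) and A83-01 against TGF-beta receptors (1 uM). With 1 library for each medium there is no replicate, and no difference was tested. The labels do not give the number of animals, and the effects of the 3 agents that differ between the media cannot be told apart. Intervals are given at 95% and take in counting error alone.

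Class I molecules carry peptides cut from the cell's own proteins to its surface, where cytotoxic T cells read them. The proteasome cuts the proteins, the TAP transporter carries the peptides into the endoplasmic reticulum, and a heavy chain joined to beta-2-microglobulin binds them there with the help of a loading complex. Interferons and TNF are known to raise many of these genes, including the immunoproteasome subunits that replace the constitutive catalytic subunits. IRF7 is a transcription factor of the type I interferon response that is itself raised by interferon. Hepatocytes are known for a low level of class I at rest and a higher one in inflammation.

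After cells with fewer than 500 genes or over 25% mitochondrial UMIs were left out, 1245 induction cells and 1191 expansion cells remained, with 9201887 and 29390000 UMIs. The median cell held 6765 UMIs in the induction library and 23184 UMIs in the expansion library, so levels are given as CPM, UMIs scaled to the library total. Fewer cells with a transcript and less RNA per cell cannot be told apart in such sums. A limit of 3 UMIs corresponded to 0.326 CPM in the induction library and 0.102 CPM in the expansion library. The log2 ratio of induction over expansion had a median of 0.22 among genes counted at 50 UMIs or more in each library, so a gene at a log2 ratio of 0 stood below the median gene by that amount. Both libraries were rich in hepatocyte transcripts: all 10 hepatocyte markers were counted in each, with summed levels of 53902 CPM in the induction library and 32130 CPM in the expansion library. Single markers differed widely between the libraries. Cps1 stood at 140 CPM in the induction library and 0.238 CPM (7 UMIs) in the expansion library, and Alb at 19450 and 1737 CPM. Trf went the other way, at 9661 CPM in the induction library and 14800 CPM in the expansion library. The libraries shared 4 cell barcodes.

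The members' promoter windows are shown because class I and immunoproteasome genes are textbook targets of NF-kB and interferon. RefSeq windows of GRCm38.p6, from 250 bases before to 50 bases after a start site, were found for 8 of the 9 members, the exception being Tap2. Both strands were searched for the NF-kB letters, GGG then any 2 bases then TTCCC or TTTCC (found in 3.24% of 32851 windows of 300 bases), the interferon-stimulated element letters, GAAA then any 2 bases then GAAA (3.44%), the STAT element letters TTCNNNGAA (8.30%) and the Y box letters CCAAT (37.4%). Capitals mark these matches below, in the direction of each gene.
H2-K1: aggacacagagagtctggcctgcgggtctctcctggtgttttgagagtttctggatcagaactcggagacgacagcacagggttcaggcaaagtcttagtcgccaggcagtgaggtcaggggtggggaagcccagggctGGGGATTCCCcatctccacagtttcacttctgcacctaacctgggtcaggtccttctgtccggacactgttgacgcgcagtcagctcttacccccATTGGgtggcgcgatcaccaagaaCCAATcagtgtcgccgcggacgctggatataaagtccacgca
H2-D1: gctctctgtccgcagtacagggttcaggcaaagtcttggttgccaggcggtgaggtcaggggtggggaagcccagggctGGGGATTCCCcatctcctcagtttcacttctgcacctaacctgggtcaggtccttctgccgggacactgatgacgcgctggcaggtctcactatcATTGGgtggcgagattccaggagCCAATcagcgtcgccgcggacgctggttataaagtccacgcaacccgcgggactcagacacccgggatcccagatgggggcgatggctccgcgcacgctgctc
B2m: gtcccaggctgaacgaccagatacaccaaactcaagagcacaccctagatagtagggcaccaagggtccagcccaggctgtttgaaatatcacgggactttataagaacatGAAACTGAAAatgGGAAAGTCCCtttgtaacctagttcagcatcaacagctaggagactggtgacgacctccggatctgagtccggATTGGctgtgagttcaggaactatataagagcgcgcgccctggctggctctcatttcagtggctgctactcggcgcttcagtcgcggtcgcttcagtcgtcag
Tap1: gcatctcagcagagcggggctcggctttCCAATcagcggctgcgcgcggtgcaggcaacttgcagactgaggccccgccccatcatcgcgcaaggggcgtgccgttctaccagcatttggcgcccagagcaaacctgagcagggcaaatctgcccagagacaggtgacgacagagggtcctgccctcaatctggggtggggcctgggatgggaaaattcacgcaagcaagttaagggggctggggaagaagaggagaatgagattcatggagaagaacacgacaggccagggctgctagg
The H2-K1 window lies at chr17:34000298-34000597 on the minus strand, H2-D1 at chr17:35262844-35263143 on the plus strand, B2m at chr2:122147437-122147736 on the plus strand and Tap1 at chr17:34187306-34187605 on the plus strand. The H2-K1 and H2-D1 windows held the same NF-kB letters, GGGGATTCCC, and a Y box on each strand, and 105 of 110 bases around the NF-kB match were identical between them. The B2m window held the interferon-stimulated letters GAAACTGAAA, an NF-kB match on the other strand (GGAAAGTCCC) and a Y box. The Tap1 window held a Y box, and 275 of its 300 bases are also in the window of Psmb9, which is read from the opposite strand. The start sites of these 2 genes lie 226 bases apart. The Psmb8 window held a STAT match (TTCCCAGAA), and the windows of Psmb10 and Irf7 held none of the searched letters. A match is a description of the letters in this window and not a binding site.

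On GRCm38, 6 of the 9 genes lie on chromosome 17, in the major histocompatibility complex. Psmb9, Tap1, Psmb8 and Tap2 follow each other within 34.3 kb, from 34181987 to 34216321, H2-K1 lies before them (33996017 to 34000347) and H2-D1 after them (35262730 to 35267499). B2m lies on chromosome 2 (122147686 to 122153083), Psmb10 on chromosome 8 (105935735 to 105938444) and Irf7 on chromosome 7 (141262706 to 141266481). The first 212 bases of Tap1 overlap Psmb9 on the opposite strand, and genes on the opposite strand also overlap B2m, Tap2, Psmb8, Psmb10 and Irf7. None of the members overlaps a gene on its own strand. Whether counting used strand is not given in the sources used here. No stretch of 90 bases in the last 500 bases of the longest protein-coding transcript of a member was found in a transcript of another gene, although the class I heavy chain genes form a family of similar sequences.

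The 3 genes of the class I molecule itself were abundant and nearly level between the media, while the genes of peptide supply and Irf7 stood lower in induction medium. Of the 9 members, 2 stood 2-fold or more below their expansion level with an interval excluding a ratio of 1, Psmb8 and Irf7, and 0 were at least 2-fold higher, against 3.17% and 9.17% of the 7220 genes with at least 10 CPM in the higher library. Relative to the median gene the counts were 3 lower, Tap1 being the third, and 0 higher, against 4.67% and 6.65%. The interval lay below a ratio of 1 for 8 of the 9 members, against 18.6% of all measured genes, and above it for 0, against 50.8%; for H2-K1 it held 1. At a limit of 1.5-fold, 6 members were lower and 0 higher, against 7.17% and 21.1%. The members' median log2 ratio was -0.70, beside 0.21 over all measured genes. These shares and this median over all measured genes are also the background for the counts and medians of each gene list below. All 9 members passed the minimum of 10 CPM, but Tap1 and Tap2 passed it through the expansion library alone.

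**Figure D1:**
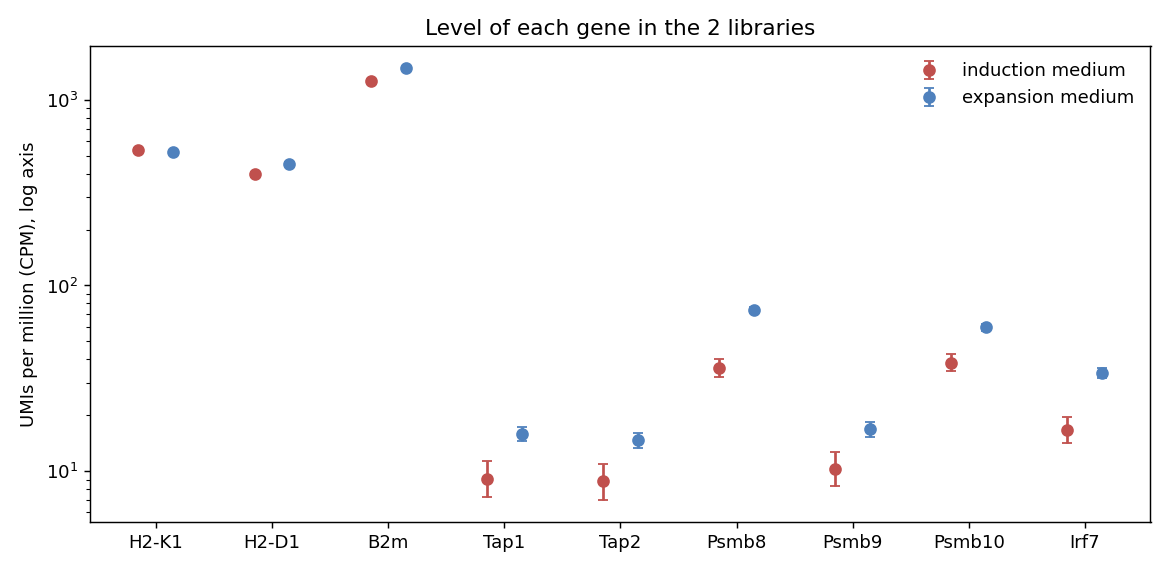
Level of each of the 9 genes in CPM (log axis) in the induction library (left point of each pair) and the expansion library (right point), with exact Poisson intervals. H2-K1, H2-D1 and B2m stand at 396 CPM or more in both libraries, and the other 6 genes stand at 38.5 CPM or less in the induction library and 73.8 CPM or less in the expansion library.

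B2m, the light chain shared by all class I molecules, was the most abundant member, at 1263 CPM (1240 to 1286) in the induction library and 1478 CPM (1464 to 1492) in the expansion library. Its log2 ratio was -0.23 (-0.26 to -0.20). H2-K1, one of the classical heavy chains, stood at 535 CPM (520 to 550) in the induction library and 520.4 CPM (512 to 529) in the expansion library, with intervals that overlapped. Its log2 ratio was 0.04 (-0.01 to 0.09), and -0.18 relative to the median gene, so its direction depended on the scaling. H2-D1, the other classical heavy chain of this strain, stood at 396 CPM in the induction library and 452 CPM in the expansion library, a log2 ratio of -0.19 (-0.24 to -0.14). By level among the 7220 measured genes, B2m ranked 136th in the induction library and 118th in the expansion library, and H2-K1 256th and 230th.

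Most other class I and class I-like genes that were measured stood lower in induction medium, while H2-Q10 stood higher. Of 14 listed class I and class I-like genes besides H2-K1 and H2-D1, 12 were in the tables and 6 were measured at 10 CPM or more. Of these 6, 0 were at least 2-fold apart, 5 had an interval below a ratio of 1 and 1, H2-Q10, had an interval above it. The list's median log2 ratio was -0.56. Relative to the median gene 1, H2-Q4, was at least 2-fold lower, and it counted as measured through the expansion library alone. H2-Q10, a secreted class I molecule made by the liver, stood at 587 CPM in the induction library and 314 CPM in the expansion library (log2 ratio 0.90, 0.86 to 0.95). Among the genes of the same Q region, H2-Q4 stood at 9.56 and 18.7 CPM in the induction and expansion libraries (log2 ratio -0.97) and H2-Q6 at 19.3 and 31.5 CPM (-0.70). In H2-Q4 and H2-Q6, 9.49% and 10.9% of the 90-base stretches near the transcript end were also found in other genes, so their counts are less certain.

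Both TAP genes were scarce and stood lower in induction medium. Tap1 had 84 UMIs in the induction library, or 9.13 CPM (7.28 to 11.3), and 467 UMIs in the expansion library, or 15.9 CPM (14.5 to 17.4). Its log2 ratio was -0.80 (-1.15 to -0.46), and -1.02 relative to the median gene. Tap2, the other subunit of the transporter, had 81 UMIs in the induction library (8.80 CPM, 6.99 to 10.9) and 430 UMIs in the expansion library (14.6 CPM, 13.3 to 16.1), a log2 ratio of -0.73 (-1.09 to -0.39). For both genes the intervals of the 2 libraries did not overlap.

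The loading complex differed less evenly. Of 5 measured loading genes, 0 were at least 2-fold apart and 4 had an interval below a ratio of 1, and the list's median log2 ratio was -0.40. Tapbp, which encodes tapasin, the bridge between TAP and the heavy chain, stood at 107 CPM in the induction library and 179 CPM in the expansion library (log2 ratio -0.74, -0.84 to -0.65). Pdia3, a disulfide isomerase of the complex, stood at 149.9 CPM in the induction library and 214 CPM in the expansion library (-0.51). The chaperone genes, which serve many other proteins too, were close to level: Calr, for calreticulin, had a log2 ratio of -0.14 (-0.18 to -0.10) and Canx, for calnexin, 0.04 (-0.02 to 0.10), which is -0.18 relative to the median gene.

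All 3 immunoproteasome genes stood lower in induction medium. Psmb8, the replacement for the catalytic subunit gene Psmb5, stood at 36.0 CPM (331 UMIs, 32.2 to 40.1) in the induction library and 73.8 CPM (2168 UMIs, 70.7 to 76.9) in the expansion library, a log2 ratio of -1.04 (-1.21 to -0.87). Psmb10, the replacement for Psmb7, stood at 38.5 CPM (354 UMIs) in the induction library and 59.4 CPM (1747 UMIs) in the expansion library, a log2 ratio of -0.63 (-0.80 to -0.46). Psmb9, the replacement for Psmb6, stood at 10.3 CPM (95 UMIs) in the induction library and 16.8 CPM (494 UMIs) in the expansion library, a log2 ratio of -0.70 (-1.04 to -0.38). The intervals of the 2 libraries did not overlap for any of these 3 genes.

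The constitutive partners went the other way or stayed close to level, so the share of each pair held by the immunoproteasome subunit was lower in induction medium. Psmb5 stood at 131 CPM in the induction library and 79.6 CPM in the expansion library (log2 ratio 0.72, 0.62 to 0.82), Psmb6 at 202 and 189 CPM (0.09, 0.01 to 0.17) and Psmb7 at 70.4 and 61.8 CPM (0.19, 0.06 to 0.32). Relative to the median gene Psmb6 and Psmb7 stood slightly lower in induction medium. Psmb8 made up 21.5% of the UMIs of Psmb8 and Psmb5 in the induction library (331 UMIs of Psmb8 beside 1210 of Psmb5; 19.5 to 23.6) and 48.1% in the expansion library (46.6 to 49.6). Psmb10 made up 35.3% of its pair with Psmb7 in the induction library (32.4 to 38.4) and 49.0% in the expansion library (47.4 to 50.7). Psmb9 made up 4.87% of its pair with Psmb6 in the induction library (3.96 to 5.92) and 8.15% in the expansion library (7.47 to 8.87). These shares do not depend on the library total, and intervals did not overlap for any pair. Of the 90-base stretches near the end of Psmb5, 36.7% are also found in another gene, so its own count is uncertain.

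**Figure D2:**
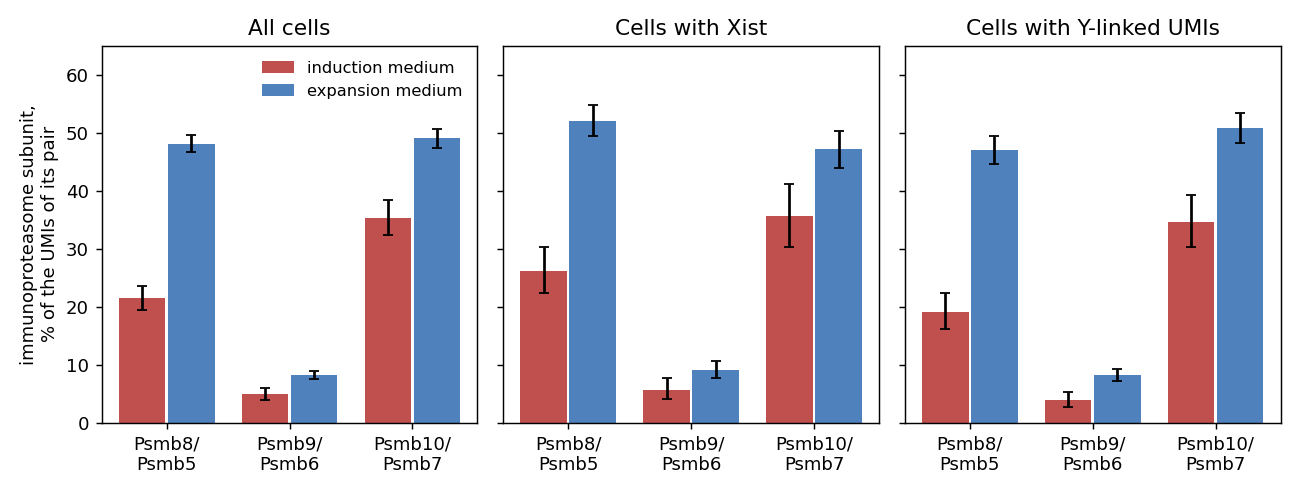
Share of each pair's UMIs held by the immunoproteasome subunit, in percent, in the induction library (left bar) and the expansion library (right bar), with exact binomial intervals, in all cells and in cells grouped by sex-linked transcripts. In all cells Psmb8 holds 21.5% of its pair in induction medium and 48.1% in expansion medium, and the induction library is lower in these 2 groups of cells for all 3 pairs. Cells with G2/M transcripts are not drawn.

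The activator of the immunoproteasome followed its catalytic subunits. Psme2, a subunit of the PA28 activator, stood at 104 CPM in the induction library and 209 CPM in the expansion library (log2 ratio -1.01, -1.11 to -0.91), and Psme1, its partner, at 85.2 and 126 CPM (-0.56, -0.67 to -0.45). Psme3, the subunit of a different activator, stood at 67.1 CPM in the induction library and 55.9 CPM in the expansion library (0.26), and Pomp, the assembly factor of the proteasome, at 203 and 151 CPM (0.43). Of the 7 proteasome genes listed beside the members, 1 was at least 2-fold lower, Psme2, 0 were at least 2-fold higher, and 5 had an interval above a ratio of 1.

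Irf7 stood at 16.7 CPM (154 UMIs, 14.2 to 19.6) in the induction library and 33.9 CPM (996 UMIs, 31.8 to 36.1) in the expansion library. Its log2 ratio was -1.02 (-1.27 to -0.77), and -1.24 relative to the median gene. The other factors of its kind did not stand lower as a group. Of 7 measured STAT and IRF genes, 0 were at least 2-fold apart. The interval lay below a ratio of 1 for 1 and above it for 4, against 18.6% and 50.8% of all measured genes. Stat2, a part of the type I interferon complex, had 212 UMIs in the induction library and 366 in the expansion library (log2 ratio 0.89, 0.64 to 1.14) and Irf3, which acts with Irf7 after viral nucleic acid is sensed, stood at 34.2 and 21.8 CPM (0.65). Irf2 stood at 37.5 CPM in the induction library and 18.7 CPM in the expansion library, a log2 ratio of 1.00 just inside the 2-fold limit. Irf1 stood at 10.4 and 13.7 CPM (-0.39, -0.73 to -0.07) and Irf5 at 10.8 and 11.3 CPM (-0.07, -0.41 to 0.25). Irf9 (65 and 256 UMIs) and Irf8 (31 and 59 UMIs) did not reach 10 CPM in either library.

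**Figure D3:**
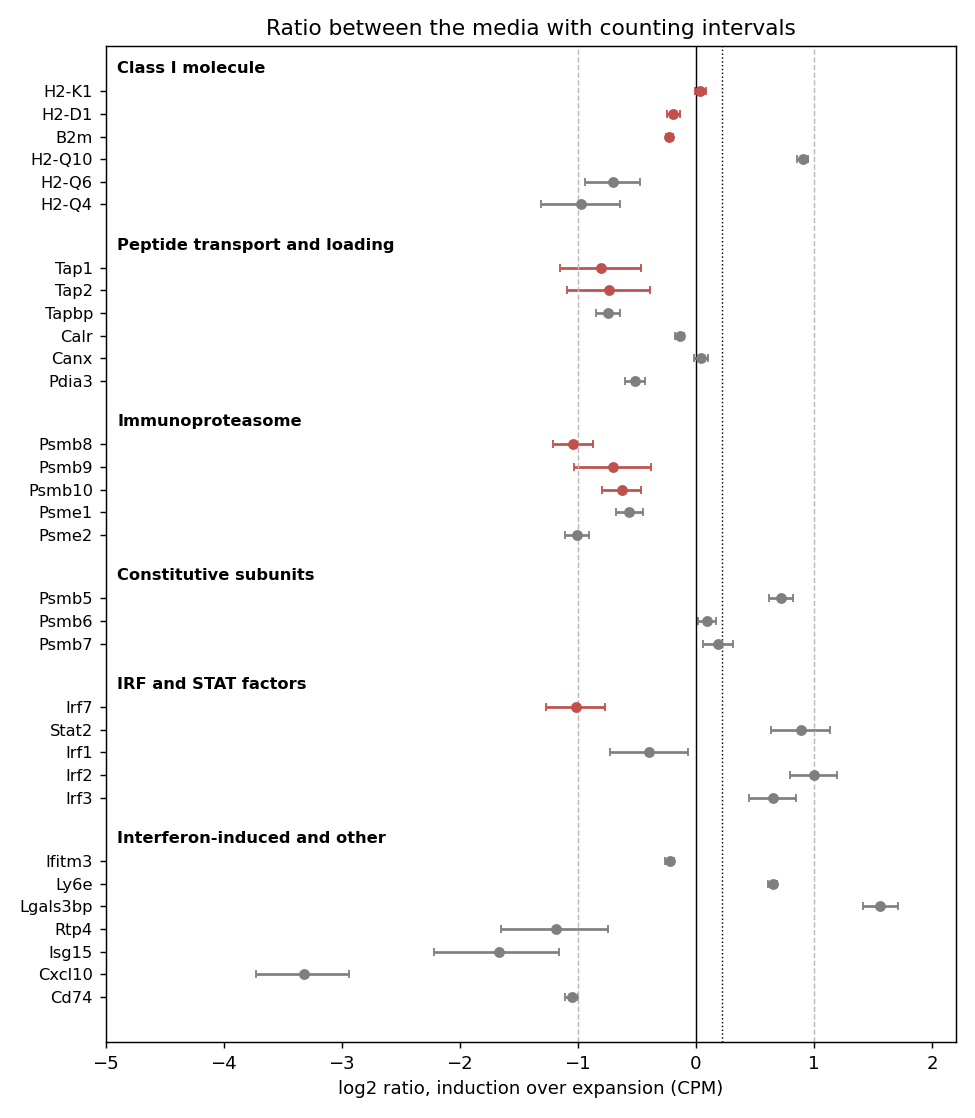
Log2 ratio of CPM, induction over expansion, with exact conditional intervals, for the 9 genes (red) and selected genes of the same pathways (grey). The solid line is a ratio of 1, the dotted line the median gene (0.22) and the dashed lines 2-fold. H2-K1, H2-D1 and B2m lie between -0.23 and 0.04, and the other 6 members lie between -1.04 and -0.63.

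No transcript of the listed interferon genes was counted. All 8 listed interferon genes, Ifnb1, Ifna1, Ifna2, Ifna4, Ifne, Ifng, Ifnl2 and Ifnl3, had 0 UMIs in both libraries, which by the limit of 3 UMIs allows a level of up to 0.326 CPM in the induction library and 0.102 CPM in the expansion library. The receptors and kinases were counted at a moderate level: of 8 measured, 0 were at least 2-fold apart, 5 had an interval below a ratio of 1 and 2 had one above it. Ifnar1 stood at 28.9 CPM in the induction library and 30.5 CPM in the expansion library, Ifnar2 at 51.4 and 64.7 CPM, Ifngr1 at 76.6 and 104 CPM and Ifngr2 at 85.5 and 104 CPM. Jak2, a kinase of the interferon gamma receptor, had the widest gap of the 8 measured genes, at 18.1 CPM in the induction library and 34.3 CPM in the expansion library (log2 ratio -0.92). Jak1 stood at 75.6 and 61.9 CPM, Tyk2 at 10.3 and 6.81 CPM and Il10rb at 28.6 and 40.9 CPM. The receptor gene of the lambda interferons, Ifnlr1, had 1 UMI in the induction library and 2 in the expansion library.

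Genes that interferons are known to raise were mostly scarce, and the measured ones went both ways. Of 36 listed interferon-stimulated genes, 35 were in the tables and 15 were measured. Of these, 2 were at least 2-fold lower and 1 was at least 2-fold higher, against 3.17% and 9.17% of all measured genes. The interval lay below a ratio of 1 for 9 and above it for 5, against 18.6% and 50.8%. The list's median log2 ratio was -0.39, beside 0.21 over all measured genes. Isg15, a ubiquitin-like protein, stood at 3.69 CPM (34 UMIs) in the induction library and 11.7 CPM (345 UMIs) in the expansion library (log2 ratio -1.67, -2.22 to -1.16), and Rtp4 at 5.22 and 11.8 CPM (-1.18). Both, and Ifi47, counted as measured through the expansion library alone, so these calls could only be lower in induction medium. Lgals3bp, a secreted glycoprotein, was the gene at least 2-fold higher, at 76.3 CPM in the induction library and 25.8 CPM in the expansion library (1.56, 1.41 to 1.71). Ifitm3, a membrane protein that blocks virus entry, and Ly6e were the most abundant of the list, Ifitm3 at 784 CPM in the induction library and 914 CPM in the expansion library (-0.22) and Ly6e at 947 and 602 CPM (0.65).

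Few targets of interferon gamma were measured. Of 19 listed genes 4 were measured, 1 of which was at least 2-fold lower and 0 higher. That gene, the chemokine Cxcl10, had 57 UMIs in the induction library (6.19 CPM) and 1817 UMIs in the expansion library (61.8 CPM), a log2 ratio of -3.32 (-3.73 to -2.94). It counted as measured through the expansion library alone, where it was high, as did Irgm1. Iigp1, a GTPase against intracellular parasites, stood at 64.1 CPM in the induction library and 40.2 CPM in the expansion library (0.67). Irgm2, of the same GTPase family, stood at 11.2 and 14.9 CPM (-0.42).

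Sensors of foreign nucleic acid, which act before Irf7, showed 1 gene at least 2-fold lower among 10 measured. Tmem173, which encodes the DNA sensing adaptor STING, stood at 5.22 CPM (48 UMIs) in the induction library and 15.6 CPM (459 UMIs) in the expansion library, a log2 ratio of -1.58 (-2.04 to -1.15). It counted as measured through the expansion library alone, as did Ifih1, while Ticam1 and Traf6 did so through the induction library alone. Ikbke, a kinase that activates IRF factors, was the most abundant of the list, at 71.8 CPM in the induction library and 117 CPM in the expansion library (-0.70). Ticam1 (14.8 and 8.03 CPM, log2 ratio 0.88) and Mavs (17.1 and 11.3 CPM, 0.60), adaptors of RNA sensing, were higher in induction medium by less than 2-fold. Tlr7 and Tlr9 had 0 UMIs in both libraries.

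Regulators of class I transcription stayed within 2-fold. Nlrc5, the transactivator of class I genes, had 24 UMIs in the induction library (2.61 CPM) and 87 in the expansion library (2.96 CPM), a log2 ratio of -0.18 (-0.90 to 0.48). Of 7 measured regulators 0 were at least 2-fold apart, and their median log2 ratio was 0.11. Nfya, a subunit of the Y box factor, stood at 8.91 CPM in the induction library and 12.8 CPM in the expansion library (-0.52), and Rfx5 at 13.3 and 11.0 CPM (0.27). Among 8 measured NF-kB genes, on which TNF acts, 0 were at least 2-fold apart. Nfkbia, the inhibitor that NF-kB itself raises, was the most abundant, at 459 CPM in the induction library and 514 CPM in the expansion library (-0.16). Nfkb1 stood at 41.5 CPM in the induction library and 59.7 CPM in the expansion library (-0.52) and Relb at 87.5 and 108 CPM (-0.31), while Rela stood at 48.1 and 44.9 CPM (0.10, -0.06 to 0.26). Socs3, a feedback inhibitor of cytokine signalling, stood at 10.2 and 13.1 CPM (-0.36), and was the only one of 3 listed inhibitors to reach 10 CPM.

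The class II pathway, by which professional antigen-presenting cells show peptides, was represented by 1 abundant gene. Cd74, the invariant chain, stood at 345 CPM in the induction library (3173 UMIs) and 714 CPM in the expansion library (20985 UMIs), a log2 ratio of -1.05 with an interval below 0. The class II chains themselves were at or near 0: H2-Aa had 0 UMIs in both libraries, H2-Ab1 had 0 in the induction library and 3 in the expansion library, and H2-Eb1 had 1 and 6. The class II transactivator Ciita had 1 UMI in each library. No other gene of this list of 13 reached 10 CPM.

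Markers of immune cells, which also express the members, were at or near 0. Of 8 lymphocyte markers, 8 had no UMI in the induction library and 6 had none in the expansion library, and Ptprc, carried by all leukocytes, had 0 in both. Of 10 macrophage markers, 7 were at 0 in both libraries, Adgre1, Clec4f and C1qa among them, and the list's summed level was 0.869 CPM in the induction library and 1.77 CPM in the expansion library. Of 8 endothelial markers 5 were at 0 in both libraries, Kdr and Cdh5 among them, and Egfl7 carried nearly all of the sum of 34.2 CPM in the induction library and 39.4 CPM in the expansion library. The stellate cell markers summed to 0.326 CPM in the induction library and 0.238 CPM in the expansion library. The antigen-presenting cell markers summed to 345 CPM in the induction library and 715 CPM in the expansion library, nearly all of it Cd74, with 4 of 8 markers at 0 in both. Bile duct markers summed to 746 CPM in the induction library and 1426 CPM in the expansion library, a difference in the direction of the members. This sum was mostly Spp1, while the keratin genes were at or near 0 (Krt7 0 UMIs in each library, Krt19 1 UMI in the induction library and 6 in the expansion library). Sox9 stood at 74.8 and 103 CPM in the induction and expansion libraries, Cftr at 6.96 and 11.4 CPM and Epcam at 2.61 and 4.42 CPM. The intervals of Sox9, Cftr and Epcam lay below a ratio of 1. The part of these cells or transcripts in the members' differences was not tested.

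In single cells, class I transcripts were found in most cells and those of the peptide supply genes were sparse. Without thinning, H2-K1 had a median of 3 UMIs per induction cell (quartiles 2 and 5, highest 35) and 11 UMIs per expansion cell (7 and 17, highest 56), and B2m a median of 8 UMIs (4 and 12, highest 83) and 31 UMIs (22 and 45, highest 301). Because the expansion cells held 3.43 times more UMIs at the median, each cell was thinned to 2000 UMIs, which left out 14 induction cells and 0 expansion cells. A UMI of B2m was then found in 87.1% of induction cells (unthinned 98.6%) and 91.8% of expansion cells (unthinned 100%), of H2-K1 in 63.1% (60.4 to 65.8) and 64.2% (61.4 to 67.0) (unthinned 91.2% and 99.7%), and of H2-D1 in 51.9% and 54.9% (unthinned 85.2% and 99.5%). All 3 genes of the class I molecule were found together in 31.8% of thinned induction cells and 33.4% of thinned expansion cells.

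At least 1 of the 5 TAP and immunoproteasome genes was found in 18.4% of thinned induction cells (226 of 1231; 16.2 to 20.6) and 29.3% of thinned expansion cells (349 of 1191; 26.7 to 32.0). Psmb8 was found in 7.23% of induction cells and 13.4% of expansion cells (unthinned 21.6% and 73.6%), Psmb10 in 7.07% and 10.5% (23.3% and 65.2%), and Irf7 in 3.09% and 6.21% (9.48% and 44.2%). Tap1 was found in 1.62% and 4.20% of cells (6.35% and 30.7%) and Tap2 in 1.71% and 3.53% (6.27% and 29.1%). Expected shares over all such draws were closer together for both, at 1.89% in the induction library and 3.15% in the expansion library for Tap1 and at 1.72% and 2.95% for Tap2. Psmb9 was found in 2.11% of induction cells and 1.68% of expansion cells in this draw (unthinned 7.07% and 31.3%), an order that goes against its CPM. The expected share of Psmb9 was 2.07% in the induction library and 3.36% in the expansion library, so no order is read from the draw. No group of cells in these libraries lacks class I genes, so the share owed to free RNA could not be measured. Cells with UMIs of both Xist, a noncoding RNA of female cells, and Y-linked genes, which doublets or free RNA can give, were 1.77% of induction cells and 23.1% of expansion cells. These shares come from unthinned counts, and cells with neither were 24.7% of induction cells and 7.22% of expansion cells. The part of depth in these shares was not tested.

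Cell-to-cell variation beyond counting was seen for the 3 abundant genes, while the other 6 were too sparse at 2000 UMIs to show it. In thinned cells the variance over the mean, which is 1 for counting alone, was 1.60 and 1.61 for B2m in the induction and expansion libraries, 1.27 and 1.12 for H2-K1 and 1.23 and 1.17 for H2-D1. It lay between 0.94 and 1.08 for the other 6 genes in both libraries. In cells thinned to 5000 UMIs, which left out 293 induction cells, it was 1.63 for Irf7 in the induction library, beside 1.52 for H2-K1. In the expansion library it was 1.16 for Irf7 and 1.14 for Psmb8. The 1.63 came from 74 of 952 cells with an Irf7 UMI, the highest holding 7, so very few cells may carry it. For Irf7 in the induction library the value was 1.02 at 2000 UMIs and 1.08 at 1000 UMIs. Over the 36 pairs of members, the median Pearson r across thinned cells was 0.01 in the induction library (1231 cells) and 0.02 in the expansion library (1191 cells). The highest were 0.17 between H2-K1 and B2m in the induction library and 0.12 between H2-D1 and B2m in the expansion library. Tap1 and Psmb9, which share a promoter region, had an r of -0.02 in the induction library and 0.03 in the expansion library. With such sparse counts these values are no finding. Without thinning, in cells scaled to an equal total, H2-K1 and H2-D1 had an r of 0.29 in the induction library and 0.45 in the expansion library. At equal depth the r of this pair was 0.15 and 0.06 at 2000 UMIs, and 0.23 and 0.24 at 5000 UMIs, in the induction and expansion libraries. No order between the libraries is read from these values. Cells share their library and its depth, and no p is given.

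The genes most like the summed members across cells depended on the thinning. The sum is mostly B2m, H2-K1 and H2-D1, so it says little about the other members. Among 1005 genes found in at least 20% of thinned induction cells, the 5 with the highest r were Apoa1, an apolipoprotein (0.29), Ambp, a precursor of plasma proteins (0.28), Hp, for haptoglobin (0.27), Lcn2, an acute phase protein (0.27), and Prdx1, a peroxidase (0.26), beside a median of 0.00. In the expansion library 0 of 865 genes reached an r of 0.2, against 18 of the 1005 in the induction library. Without thinning, 57 of 1005 induction genes and 31 of 865 expansion genes reached it, and 1 of the 5 genes above remained among the 5 highest of the induction library (Ambp), beside Tmem176a, Clu, Mgst1 and Tmem176b. No order between the libraries is read from these counts.

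Both libraries held cells with Xist and cells with Y-linked UMIs, which gives a comparison within subgroups of cells. Cells with both or neither were left out of these groups, which were set from unthinned counts. Cells with Xist and no Y-linked UMI numbered 412 in the induction library and 325 in the expansion library, and cells with Y-linked UMIs and no Xist 503 and 505. Psmb8 stood lower in induction medium in both, with log2 ratios of -1.03 (-1.31 to -0.76) in Xist cells and -1.11 (-1.39 to -0.84) in Y cells, as did Irf7 (-1.08 and -0.84) and Psmb10 (-0.60 and -0.70). B2m, H2-D1 and H2-K1 had ratios between -0.28 and 0.08 in both. The intervals of B2m and H2-D1 lay below a ratio of 1 in both groups. That of H2-K1 lay just above it in Xist cells (0.002 to 0.16), where its ratio relative to the median gene was -0.21, and held it in Y cells (-0.06 to 0.09). Tap1, Tap2 and Psmb9 had intervals holding a ratio of 1 in Xist cells and below it in Y cells: Tap2 had -0.40 (-1.04 to 0.20) and -0.98 (-1.56 to -0.44), and Psmb9 had -0.50 (-1.05 to 0.01) and -1.09 (-1.67 to -0.54). The gap was widest for Tap1: its log2 ratio was -0.23 (-0.77 to 0.28) in Xist cells and -1.39 (-2.06 to -0.79) in Y cells. Within the induction library Tap1 stood at 13.7 CPM (42 UMIs) in Xist cells and 6.20 CPM (25 UMIs) in Y cells, and within the expansion library at 16.1 and 16.3 CPM. In the induction library these groups also differed by cluster (clusters are described below). The cluster led by Slco1b2, Slc22a30 and Rapgef4 (228 cells) was 97.8% Xist cells and held Tap1 at 15.6 CPM (22 UMIs). The clusters of 245, 177 and 299 cells were 8.16%, 7.34% and 11.7% Xist cells. Tap1 also stood at 15.3 CPM (14 UMIs) in a cluster of 90 cells with 33.3% Xist and 48.9% Y cells. The part of cluster in the gap was not tested. The difference between these cell groups was not tested, since the cells of a library are not replicates. Psmb8 made up 26.2% of its pair in Xist cells and 19.1% in Y cells of the induction library, against 52.1% and 47.0% in the expansion library. In cells with at least 2 of the listed G2/M genes, which mark cell division (42 induction and 71 expansion cells), the interval held a ratio of 1 for all 9 members. The share of all genes with such an interval in these few cells is not given, so no lack of a difference is read from this count. There Psmb8 had 26 UMIs in the induction library and 159 in the expansion library, a log2 ratio of -0.33 (-0.99 to 0.27), and Irf7, with 11 and 61 UMIs, stood at -0.19 (-1.27 to 0.75). In these cells the share of Psmb9 in its pair was higher in the induction library, at 10.1% (9 UMIs, 4.73 to 18.3) against 9.15% (44 UMIs, 6.73 to 12.1) in the expansion library. Psmb8 made up 28.6% (19.6 to 39.0) of its pair there in the induction library and 46.9% (41.5 to 52.4) in the expansion library, intervals that did not overlap. Psmb10 made up 34.9% and 43.3% of its pair, with intervals that overlapped.

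**Figure D4:**
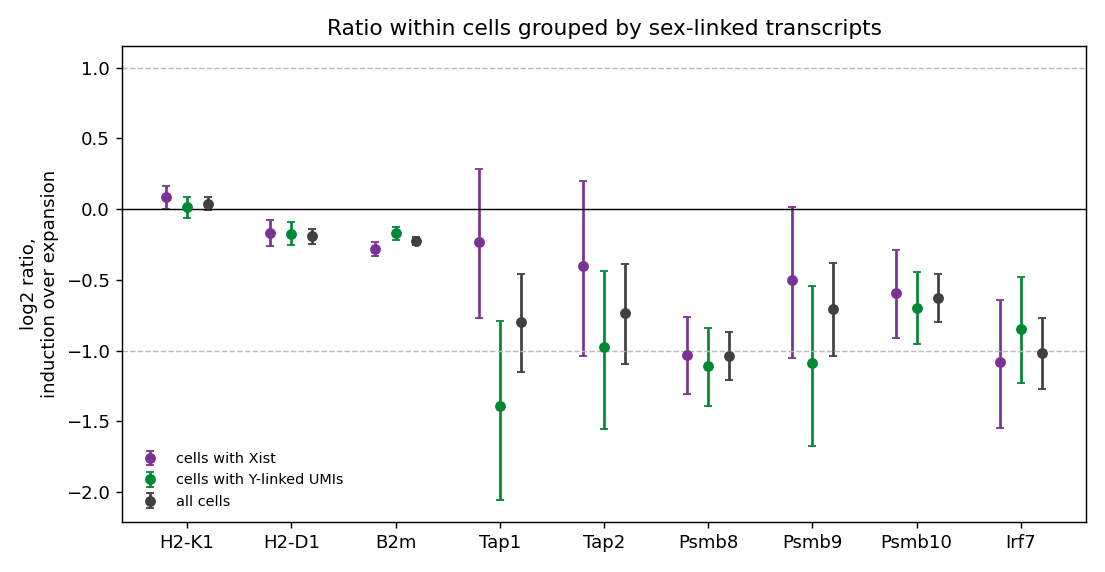
Log2 ratio, induction over expansion, of each of the 9 genes in cells with Xist (left point), cells with Y-linked UMIs (middle) and all cells (right), with exact conditional intervals. The intervals of Psmb8, Psmb10 and Irf7 lie below 0 in all 3 sets, and in cells with Xist the intervals of Tap1 (-0.77 to 0.28), Tap2 (-1.04 to 0.20) and Psmb9 (-1.05 to 0.01) cross 0.

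Levels also varied among clusters of cells found within each library without the members and the listed pathway genes. Each library gave 7 clusters. The summed level of the 9 genes, mostly B2m, H2-K1 and H2-D1, ran from 1675 to 2968 CPM over the induction clusters and from 2331 to 2955 CPM over the expansion clusters. The highest induction cluster (299 cells), led by Saa2, Serpina3k and Saa1, with 2 acute phase serum amyloid genes among them, held H2-K1 at 749 CPM, while H2-K1 ran from 351 to 619 CPM in the others. The lowest (177 cells) was led by G6pc, the enzyme that releases glucose, with Fam13a and Tns1. Irf7 was lowest in the expansion cluster led by S100a6, Basp1 and Hmga2 (42 cells), at 3.13 CPM (4 UMIs), where the other 6 expansion clusters stood between 28.1 and 40.5 CPM. In the induction library Irf7 was lowest, at 7.66 CPM (7 UMIs), in the cluster of 90 cells led by Sprr1a, Serpine2 and Pcdh9, and highest, at 27.1 CPM, in the cluster led by G6pc. The same expansion cluster held B2m at 1932 CPM, the highest of the 7. Psmb10 ran from 16.2 to 62.8 CPM over the induction clusters and from 35.2 to 99.1 CPM over the expansion clusters, and was highest in the serum amyloid cluster of each (in the expansion library led by Saa2, Orm2 and Saa1, 165 cells). Psmb8 ran from 22.5 to 51.9 CPM over the induction clusters and from 43.8 to 96.3 CPM over the expansion clusters. These clusters were singled out after their values had been seen, and no cluster was tested against the others.

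**Figure D5:**
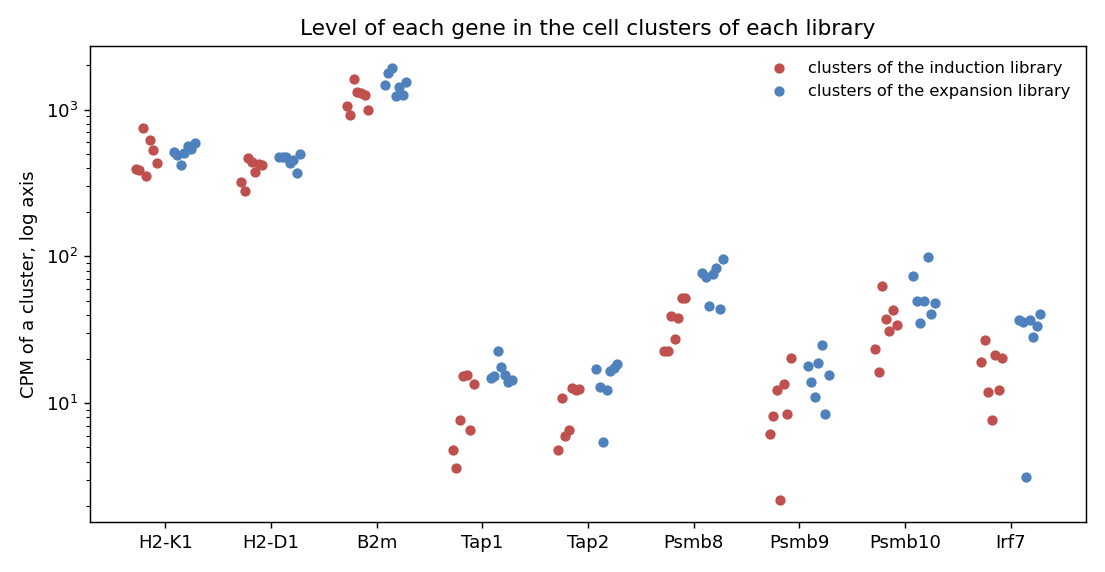
Level (CPM, log axis) of each gene in the 7 clusters of the induction library (left points) and the 7 clusters of the expansion library (right points). For H2-K1 the induction clusters run from 351 to 749 CPM and the expansion clusters from 421 to 593 CPM, and for Irf7 1 expansion cluster, at 3.13 CPM, lies apart from the other 6.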

How the data were processed

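The authors deposited raw UMI counts per gene and cell barcode for 1 induction and 1 expansion library of a droplet assay. The submitters' processing notes name Cell Ranger (2.1.1) and mm10. The gene and barcode files hold names and no values. Which annotation release was used, how cells were called and whether strand was counted is not given in the sources used here. Cells with at least 500 genes and at most 25% mitochondrial UMIs were kept. Counts were summed over these cells and divided by the library total, and log2 ratios are induction over expansion with exact conditional binomial intervals. Levels carry exact Poisson and shares exact Clopper-Pearson intervals at 95%. No test was made, since each medium has 1 library. The members and lists were chosen with earlier results of these data known. Named genes are the members, the most abundant and the 2 largest ratios in each direction of each list, genes of the proteasome, STAT and IRF, and receptor lists, and the 5 genes most like the members; some genes that met this rule are not reported here. Class II chains and Ciita, Tlr7, Tlr9, Ifnlr1, Ptprc, Krt7, Krt19, Sox9, Cftr, Epcam, Cps1, Alb, Trf and the singled-out clusters were chosen for naming with their values in view. Clusters and their 3 leading genes came from scanpy 1.11.5 (Leiden, igraph 0.11.9). Doublets were kept, and Scrublet marked 2 induction and 4 expansion cells. Positions come from GENCODE M21 on GRCm38, matched by ID for 28339 of 28692 genes. The ratio code was tested on simulated counts: among 6785 genes simulated for induction over expansion, the 2-fold rule called 100% of those given a log2 change of 1.5 and 0% of the unchanged ones. The simulated counts held counting error alone, so they check the code and say nothing of variation between libraries. Changes close to the 2-fold limit, such as those of Psmb8 and Irf7, were not simulated. Other tools were scipy 1.17.1, numpy 2.4.6 and pandas 2.3.3 under Python 3.11.15. The alternatives were other cell filters, scalings, thinning depths, fold limits, cell groups and cluster resolutions.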

Additional observations from a re-analysis of the deposited data

How the results depend on the processing

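Each member's log2 ratio was recomputed under 11 other settings, 1 of them (the expectation over thinning draws) chosen after seeing the data. Of these 99 values, 79 stayed within the main interval, 19 moved outside it and 1 reversed: Psmb9 gave 0.31 after each cell was thinned to 2000 UMIs, from 27 induction and 21 expansion UMIs, while the expectation over all thinning draws gave -0.71. The count of members at least 2-fold lower, 2 at first, was 1 with a filter of 1000 genes and 10% mitochondrial UMIs, 3 without mitochondrial and ribosomal protein genes, 3 in thinned cells (Tap1, Tap2 and Irf7, with Psmb8 at -0.97), 3 in Y cells (Tap1, Psmb8 and Psmb9, without Irf7), and 6 at a 1.5-fold limit, which 7.17% of all measured genes passed. For the stricter filter, the gene set without mitochondrial and ribosomal protein genes, the thinned cells and the Y cells, no share over all genes is given. A shift of all genes can therefore not be told apart from a change of these members. Without mitochondrial and ribosomal protein genes the median gene itself moved from a log2 ratio of 0.22 to 0.015. The set in thinned cells came from 1 draw. In it Tap1 had 20 induction and 52 expansion UMIs, where 23.5 and 38.3 were expected over all draws. Tap2 had 21 and 42 UMIs, where 21.2 and 35.7 were expected, and Psmb8 90 and 170, where 81.8 and 176 were expected. Which members pass in thinned cells is therefore not read from this draw. The count of members at least 2-fold higher was 0 in every setting run. Psmb8 and Irf7 lie so close to the 2-fold limit that their calls depend on the settings; Irf7 gave -0.99 with the stricter filter and -0.84 in Y cells.

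The share of Psmb8 in its pair was 26.2% (Xist cells) and 19.1% (Y cells) in the induction library, and 50.1% (thinned) and 52.1% (Xist cells) in the expansion library. That of Psmb9 was 3.82% (Y cells) in the induction library, and 8.89% (equal weight for every cell), 4.47% (thinned) and 9.05% (Xist cells) in the expansion library. The thinned share rests on a draw of 21 expansion UMIs of Psmb9, where 41.1 were expected, so no order is read from it. In G2/M cells the share of Psmb9 was 10.1% in the induction library and 9.15% in the expansion library, the other order. That of Psmb10 was 47.1% (Xist cells) and 50.8% (Y cells) in the expansion library. The median log2 ratio of the proteasome partners reversed to -0.015 without mitochondrial and ribosomal protein genes and -0.031 relative to the median gene, and that of the nucleic acid sensing genes to 0.19 (thinned), 0.11 (Xist cells) and 0.039 (Y cells). The causes were not tested. No paired analysis was possible because each medium has 1 library. Induction cells hold fewer UMIs, so the TAP genes and Psmb9, with under 100 induction UMIs each, are the least precise.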
